A study of Mus musculus with 30 samples.

Results

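Cytosolic ribosomal protein genes were examined in mouse amygdala and blood after fear conditioning, with and without earlier immobilization stress. The genes were chosen by symbol alone, as entries named Rps or Rpl followed by a number and at most a short suffix. The rule found 77 of the 23303 entries in the expression table, of which 32 are named as small-subunit (Rps) and 45 as large-subunit (Rpl) genes. It left out 13 further ribosomal-type entries, among them the stalk proteins Rplp0, Rplp1 and Rplp2, Rpsa, 4 rows of pseudogenes, and Rpl30, Rpl34 and Rpl13a, which the table joins to overlapping genes. It took in 1 entry, Rps4y2, whose symbol RefSeq gives only as a synonym of Rps4l, a transcribed pseudogene (GRCm38.p6, chromosome 6, 148354656 to 148355596). The match is by name alone, and the entry, counted among the 32 small-subunit names, is not shown to be a ribosomal protein.

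The cytosolic ribosome joins a small subunit, which reads the mRNA, to a large subunit, which forms the peptide bond. Most of its proteins are present once per ribosome, and cells make them in step, in part because many of their mRNAs start with an uninterrupted run of C and T (the 5′ terminal oligopyrimidine tract) that puts their translation under mTOR control. In neurons, new protein synthesis is needed for lasting memory, and Rps6 phosphorylation is widely used as a mark of recently active cells. In blood, reticulocytes, platelets and lymphocytes differ greatly in how many ribosomal protein transcripts they hold.

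Male C57BL/6J mice aged 2 to 3 months made up 3 groups. HC (home cage) mice were handled and taken out of the vivarium, with no behavioral procedure. FC mice had auditory fear conditioning, and Immo+FC mice had 2 h of immobilization a week before the same conditioning. FC and Immo+FC mice were killed 2 h after conditioning. No group had immobilization alone. Each library came from a pool of 2 mice of a group, as bilateral punches centered on the basolateral amygdala or as globin-depleted trunk blood, and amygdala and blood of a pool came from the same mice. For amygdala there were 6 libraries of HC, 6 of FC and 4 of Immo+FC. For blood there were 4 of HC, 5 of FC and 5 of Immo+FC. The unit was FPKM, fragments scaled to transcript length and to the mapped fragments of the library. The authors computed it separately for each tissue, so levels in the 2 tissues are set side by side without a test.

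Amygdala libraries held 23148078 to 31366290 sequences with 91.33 to 92.3% uniquely mapped, and blood libraries 9081977 to 25892322 with 60.06 to 72.59% uniquely mapped. In blood, 22.75 to 35.34% of sequences mapped to several places. Ribosomal protein genes have many processed pseudogenes (289 are named in the GENCODE annotation, 4 of them rows of the table), so reads shared with such copies leave the level of any single gene uncertain. Summed levels of neuronal markers (9 of 9 listed) were 1949 to 2395 FPKM in amygdala and 0.672 to 42.3 FPKM in blood, and neutrophil markers (10 of 11 listed) were at 2.00 to 9.14 FPKM in amygdala and 4507 to 44535 FPKM in blood. The tissue labels thus matched their markers.

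Ribosomal protein transcripts were abundant in both tissues. The median level was 151.9 FPKM in amygdala and 1561 FPKM in blood, where the median of all genes tested was 7.93 and 8.10 FPKM. In amygdala 8 of the 100 highest entries were ribosomal protein genes, and in blood 38 were. Their transcripts were short, with a median annotated length of 1094 bases against 3440 bases for all genes tested in amygdala. Of the 77 genes, 74 passed the minimum mean of 0.5 FPKM in amygdala and 76 in blood. Rpl10l, an intronless relative of Rpl10, was listed at 0 in all 30 libraries. Rpl39l and Rpl3l, relatives of Rpl39 and Rpl3 best known from testis and from muscle, were below the minimum in amygdala, with means of 0.121 and 0.193 FPKM.

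The order of levels within a tissue spanned a wide range although the proteins are used in near equal numbers. In amygdala Rps21 (581 FPKM), Rps29 (578 FPKM), Rps15 (543 FPKM), Rps27 (421 FPKM) and Rpl41 (404 FPKM), which all encode small ribosomal proteins, had the highest means. Between libraries Rps21 ran from 491 to 773 FPKM, Rps29 from 524 to 804 FPKM and Rps15 from 496 to 698 FPKM, so these neighbors in the order did not differ beyond their spread. The 5 lowest tested means in amygdala were Rpl7l1 (11.6 FPKM), Rps27l (18.8 FPKM), Rps15a (20.5 FPKM), Rps4y2 (28.2 FPKM) and Rpl22 (29.9 FPKM). In blood Rpl41 (16830 FPKM), Rps27 (11771 FPKM), Rps29 (9820 FPKM), Rps21 (5857 FPKM) and Rps12 (5325 FPKM) led, and Rpl10l (0 FPKM), Rpl39l (0.522 FPKM), Rpl3l (1.55 FPKM), Rps4y2 (6.60 FPKM) and Rpl7l1 (22.7 FPKM) came last.

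Across the 74 genes tested in amygdala, the median level in blood was a median of 11 times that in amygdala, where the same ratio over 10285 genes was 0.979. The genes kept much of their order, with Pearson's r of 0.87 on the log2 scale and Spearman's rho of 0.85 over 74 genes, which share libraries, annotated lengths and any bias of the 2 preparations. The ratio departed most for Rps4y2, whose median was 28.1 FPKM in amygdala and 6.26 FPKM in blood, a ratio of 0.223 and the only one below 1. Next came Rpl7l1 with a ratio of 1.91, Rpl3 with 3.14, Rpl22l1 with 3.41 and Rpl15 with 4.02. At the other end stood Rpl41 with 31.9, Rps27 with 28.3, Rpl39 with 25.4 and Rps9 with 24.8. Rpl3, which binds close to the peptidyl transferase center, was at 195 FPKM in amygdala and 611 FPKM in blood, and Rpl41, a peptide at the surface between the subunits, at 404 and 12884 FPKM.

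**Figure D1:**
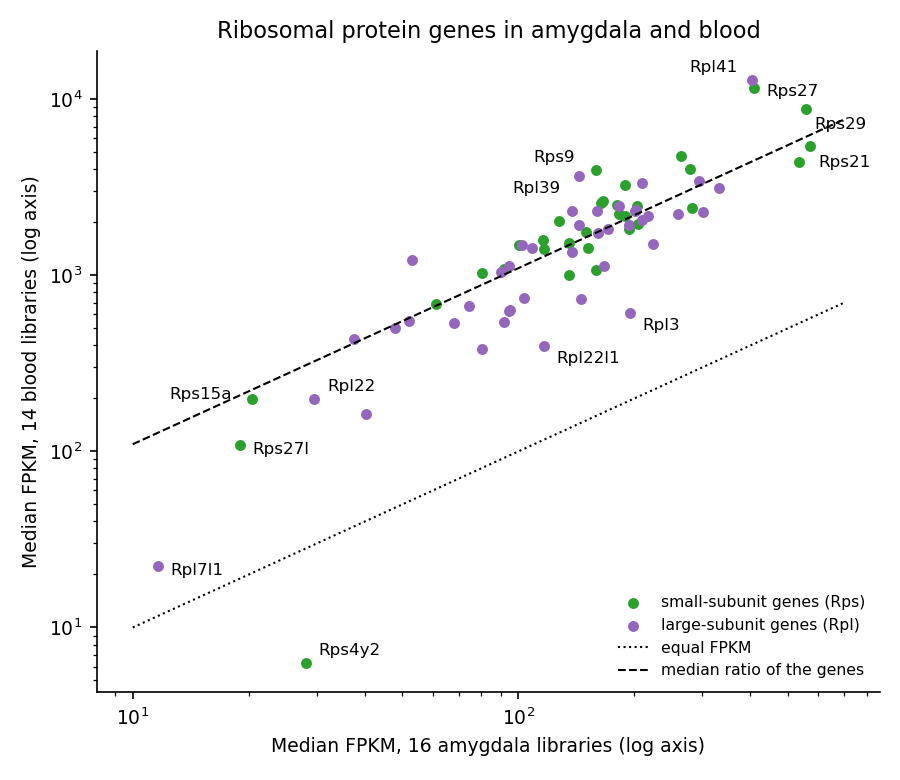
Median FPKM of each ribosomal protein gene over 16 amygdala libraries (x axis, log) and 14 blood libraries (y axis, log), with small-subunit genes in green and large-subunit genes in purple. Most genes lie near the dashed line of the median ratio, 11, and Rps4y2 lies alone below the dotted line of equal levels.

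Together the 77 genes made up 4.07 to 5.12% of the summed FPKM of an amygdala library and 15.3 to 20.7% of that of a blood library. Small-subunit genes held 49.7 to 51.4% of that sum in amygdala. In blood they held 52.7 to 54.7% in 13 libraries and 46.2% in HC library 3, where Rpl41 alone was 21.5% of the summed level of these genes.

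Within groups the genes moved together from library to library. Each gene's log2 level, less its group mean, was correlated with the mean of the other genes taken in the same way. In amygdala the median r was 0.83 over 16 libraries, and 68 of 74 genes were above 0.5. In blood the median r was 0.89 over 14 libraries, with 71 of 76 genes above 0.5. These are descriptions, since all genes of a library share its scaling. No such r was computed for other genes, and the single libraries that stood apart, set out below, can raise many r at once. The lowest values in amygdala belonged to Rps15a (0.066), Rpl7l1 (0.14) and Rpl15 (0.19), and in blood to Rps4y2 (−0.25), Rpl39l (0.067), Rpl3l (0.40), Rpl4 (0.40) and Rpl7l1 (0.48). Rps15a, a small-subunit protein, ranged from 19.2 to 21.9 FPKM over the 16 amygdala libraries. Rpl4, a large-subunit protein near the exit tunnel, ranged from 1252 to 1666 FPKM over the 14 blood libraries.

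The start sites, where the tract named above would lie, are shown for 6 of the genes. A link of such runs to levels in these libraries was not tested. Promoters from RefSeq (GRCm38.p6) were found for 58 of the 77 genes. Each line gives 15 bases before and 15 bases from the annotated start, 5′ to 3′ on the strand of the gene, with the longest run of C and T in capitals. Rps6 (chr4:86857353-86857382, minus strand), Rps27 (chr3:90213634-90213663, minus strand) and Rps27l (chr9:66946071-66946100, plus strand) were chosen as main genes and a relative with long runs in the window. The Rps27l run lies wholly before the annotated start, and the other RefSeq start of that gene (chr9:66946398-66946427) has a longest run of 4. Rpl22l1 (chr3:28805493-28805522, plus strand) was chosen as the relative with the highest level, and Rpl7l1 (chr17:46782642-46782671, minus strand) and Rpl11 (chr4:136053379-136053408, minus strand) as genes without a long run in this window.
Rps6: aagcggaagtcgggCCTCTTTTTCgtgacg
Rps27: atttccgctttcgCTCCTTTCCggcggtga
Rps27l: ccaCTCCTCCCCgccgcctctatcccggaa
Rpl22l1: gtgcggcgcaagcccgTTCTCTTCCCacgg
Rpl7l1: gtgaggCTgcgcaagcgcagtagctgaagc
Rpl11: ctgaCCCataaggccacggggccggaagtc

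A run of at least 8 C or T within these 30 bases was present in 24 of 69 promoters of the ribosomal protein genes (34.8%) and in 3943 of all 32851 promoters (12.0%). The letters CCGGAAG, a core that ETS factors bind, stood on either strand of the 300-base promoter in 34.8% of the promoters of these genes and 8.86% of all. An absent run says only that these letters are not in the window around 1 annotated start.

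The plot of the level of the genes in each library sets out where single libraries stood apart. Its value is the mean over the tested genes of the log2 level less the gene's mean in that tissue. In amygdala Immo+FC library 1 was at 0.23 and the other 15 libraries were between −0.09 and 0.10. That library had the highest value of all 16 for 60 of 74 ribosomal protein genes, where it was highest for 11.8% of all genes tested. Its levels were a median of 1.18 times the median of the other Immo+FC libraries, from 0.967 times for Rpl7l1 to 1.45 times for Rpl36. It had the fewest sequences in amygdala (23148078), with 91.33% uniquely mapped, the lowest, and 7.01% mapped to several places, the highest. Its choroid plexus markers summed to 957 FPKM, where amygdala libraries ran from 1.83 to 1047 FPKM. Its neutrophil markers summed to 8.80 FPKM, where HC and FC ran from 2.00 to 4.08 FPKM and Immo+FC library 2 was at 9.14 FPKM. The part of these in its level was not tested. In blood HC library 3 stood at 0.46 and was highest for 55 of 76 genes, against 21% of all genes tested. In it 31 genes were more than 1.5 times the median of the other HC libraries, a share not computed for all genes. The FPKM of all entries summed to 1674850 in this library, against 718870, 664738 and 1002980 in HC libraries 1, 2 and 4. Its higher levels are thus not particular to these genes, whose share of that sum was 16.8%. Rpl41 was at 11241, 8442, 60653 and 23741 FPKM in HC blood libraries 1 to 4, Rps12 was 2.99 times and Rps14 2.56 times as high in library 3 as the median of the others, and Rps4x 1.0 times. Markers of red cell precursors summed to 498, 442, 4281 and 1259 FPKM in those 4 libraries and neutrophil markers to 5697, 5076, 29766 and 4507 FPKM. The part of these cells in the HC values was not tested. In blood Immo+FC library 1, from the same pool as the amygdala library that was highest, was lowest for 57 of 76 genes, against 11.2% of all genes tested, and stood at −0.30.

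**Figure D2:**
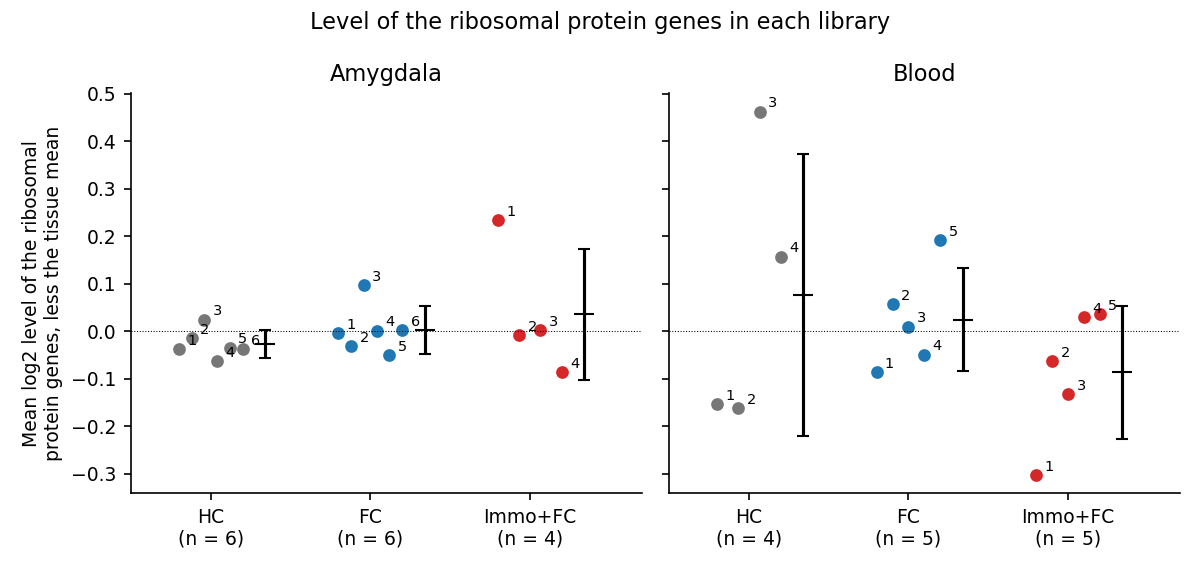
Mean log2 level of the tested ribosomal protein genes in each library less the tissue mean (y axis), by group (x axis), with replicate numbers beside the points and the mean ± SD of each group as a bar. Amygdala libraries lie between −0.09 and 0.10 apart from Immo+FC library 1 at 0.23, and blood HC libraries run from −0.16 to 0.46.

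Fear conditioning was compared with the home cage first (FC vs. HC). In amygdala the 2 groups had nearly the same ribosomal protein levels. Rps6, the kinase-regulated small-subunit protein, was at 60.1 ± 0.919 FPKM in HC (SD, n = 6) and 62.8 ± 2.24 FPKM in FC (SD, n = 6). Its FC libraries ran from 60.8 to 67.0 FPKM and its HC libraries from 59.0 to 61.2 FPKM, so the groups overlapped. The log2 fold change of Rps6 on the scale of FPKM + 0.1 was 0.06 ± 0.034 (SE), with an adjusted p of 0.452 in limma, the smallest among these genes.

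None of the 74 genes passed an adjusted p of 0.05 for FC vs. HC in amygdala in limma, where 0.0148% of all 13508 genes tested did. None passed an unadjusted p of 0.05 either, where 13.1% of all genes did. The median log2 fold change of the genes was 0.04, from −0.07 to 0.09, and that of all genes was 0.01, with 62 of 74 genes above 0 beside 56.5% of all genes tested. The median was −0.00066 after quantile normalization, so its sign depended on the scaling. It was −0.04 with the mean level of transcripts over 10000 bases as a covariate. That level was below the tissue mean in all 6 FC libraries and in 2 of 6 HC libraries. With the covariate 5 genes were lower and none higher at an unadjusted p under 0.05 in limma. Without Immo+FC library 1, 3 were higher and none lower. For both fits the share of all genes at this cut was not computed. In the main fit the next smallest p after Rps6 belonged to Rpl23 (log2 fold change 0.07), Rpl6 (0.06), Rps4x (0.07) and Rps3 (0.07). The 95% interval of the fold change lay within ±0.5 log2 for all 74 genes and within ±0.25 for 73.

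The genes with best known roles outside the ribosome had like values in both groups. Rpl11 and Rpl5, which bind and restrain Mdm2 when ribosome assembly fails, were at 206 ± 9.28 and 37.6 ± 0.763 FPKM in HC (SD, n = 6) and at 213 ± 15.9 and 38.2 ± 1.5 FPKM in FC (SD, n = 6). Rps19 and Rps14, whose loss causes anemia in people, were at 100.2 ± 4.95 and 274 ± 13.6 FPKM in HC and at 101.2 ± 6.31 and 286 ± 13.2 FPKM in FC. Rps27a, made as a fusion with ubiquitin, was at 151 ± 6.68 and 155 ± 7.72 FPKM, and Rpl38, linked to translation of Hox mRNAs, at 329 ± 10.9 and 341 ± 32.2 FPKM in HC and FC.

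In blood the FC and HC values overlapped widely because HC libraries differed among themselves. Rpl22, a large-subunit protein that lymphocyte development needs, was at 207, 190, 268 and 246 FPKM in HC and at 187, 210, 202, 184 and 208 FPKM in FC. The highest FC value was thus below the 2 highest HC values and above the 2 lowest. Its log2 fold change was −0.19 ± 0.12 (SE) with an adjusted p of 0.631 in limma. None of 76 genes passed in limma, where 0.0343% of 11656 genes tested did, and none had an unadjusted p under 0.05, where 10.2% of all genes did. The median log2 fold change was −0.04, beside −0.01 for all genes, and 22 of 76 genes were above 0, beside 47.6% of all genes. Without HC library 3 the median was 0.08 and after quantile normalization it was 0.04, so its sign rested on that library and on the scaling. The smallest p after Rpl22 belonged to Rpl23a (log2 fold change −0.21), Rpl15 (0.12), Rpl36a (−0.16) and Rpl14 (0.16). The 95% interval lay within ±0.5 for 55 of 76 genes and within ±0.25 for none, so changes of the size seen in amygdala were not detectable in blood. Neuronal markers summed to 10.6 to 42.3 FPKM in HC blood and 1.38 to 12.9 FPKM in FC blood. Their part in the HC values was not tested.

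The second comparison asked what earlier immobilization added to conditioning (Immo+FC vs. FC). In amygdala no ribosomal protein gene passed, where 0.0222% of all genes did in limma, and none had an unadjusted p under 0.05, where 10.4% did. The median log2 fold change was 0.04, beside −0.02 for all genes, and 60 of 74 genes were above 0, beside 39.9% of all genes tested. Without Immo+FC library 1 the median was −0.03, so its sign rested on that library. With the long-transcript level as a covariate it was 0.11, with a smallest adjusted p of 0.152 in limma. In that fit 23 of 74 genes were higher and none lower at an unadjusted p under 0.05. After quantile normalization 3 were higher, and without Immo+FC library 4, 6 were. Without Immo+FC library 1, 2 were lower and none higher. The shares of all genes were not computed for these fits. In the main fit Rps27l, a p53-induced relative of Rps27, had the smallest p. It was at 24.2, 19.5, 20.6 and 16.9 FPKM in Immo+FC and at 16 to 20.8 FPKM in FC, with a median of 17.2 FPKM. Only the library that stood apart was above the FC range, and the log2 fold change of 0.18 ± 0.10 (SE, adjusted p = 0.549 in limma) became 0.10 without it. Next by p came Rps23 (0.07), which lies in the decoding center, Rps27 (0.10), Rpl37a (0.11) and Rpl10 (0.06), the last of which joins the large subunit late in its assembly.

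In blood most ribosomal protein genes had a log2 fold change below 0 for Immo+FC vs. FC. The only genes above 0 were 4 relatives of main genes, Rps4y2, Rpl7l1, Rps27l and the barely detected Rpl39l. The genes vary together within a library, so their number does not count as independent evidence of a shift. Their mean log2 level per library, less the tissue mean, was −0.30 to 0.04 in Immo+FC and −0.09 to 0.19 in FC, so the groups overlapped. The median log2 fold change was −0.14, beside −0.01 for all genes, and 4 of 76 genes were above 0, beside 47.3% of all genes tested. No gene passed an adjusted p of 0.05 in limma, and neither did any of the 11656 genes tested (0%). At an unadjusted p under 0.05, 2 genes were higher and 1 lower in Immo+FC, beside 5.79% and 3.75% of all genes. The 95% interval lay within ±0.5 for 46 of 76 genes. The median ran from −0.18 to −0.09 when single libraries were left out, the latter without Immo+FC library 1.

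Rps4y2 was at 11.3, 9.83, 7.09, 6.18 and 9.0 FPKM in the 5 Immo+FC blood libraries and at 5.92, 5.76, 3.71, 3.78 and 6.27 FPKM in the 5 FC libraries. A single Immo+FC library, at 6.18 FPKM, was below the highest FC library, at 6.27 FPKM. The HC libraries, at 6.63, 7.37, 6.25 and 3.32 FPKM, overlapped both. Its log2 fold change was 0.76 ± 0.23 (SE) with an unadjusted p of 0.00540 and an adjusted p of 0.523 in limma. Reads of Rps4y2 and of the similar Rps4x may not be fully separated by the counting, and Rps4x was at 1820 to 2747 FPKM in the same blood libraries.

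Rpl7l1, a relative of Rpl7 that acts in ribosome assembly, was at 25.7, 28.7, 24.1, 25.7 and 21.9 FPKM in Immo+FC blood and at 19.9 to 22.6 FPKM in FC blood. In 4 of 5 Immo+FC libraries it was above every FC library, and the log2 fold change was 0.25 ± 0.10 (SE, adjusted p = 0.523 in limma). Rpl22l1, the relative of Rpl22 that can replace it in the ribosome, was at 305, 327, 326, 428 and 355 FPKM in Immo+FC and at 397, 381, 428, 399 and 489 FPKM in FC. In 4 of 5 Immo+FC libraries it was below every FC library, and the log2 fold change was −0.27 ± 0.12 (SE, adjusted p = 0.523 in limma). Rpl14 (log2 fold change −0.26) and Rpl3 (−0.20) had the next smallest p.

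**Figure D3:**
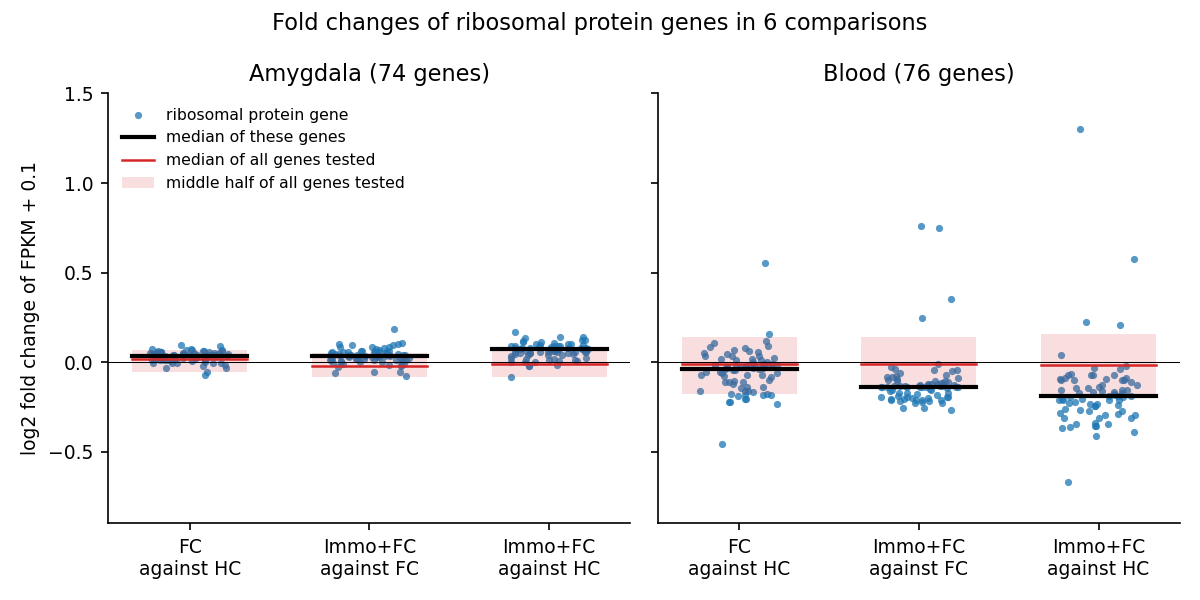
Log2 fold change of FPKM + 0.1 for each ribosomal protein gene (blue points) in 3 comparisons in amygdala and in blood, with the median of these genes (black bar) and the median and interquartile range of all genes tested (red bar and band). The black bar lies at −0.14 and −0.19 in the 2 Immo+FC comparisons in blood and between 0.04 and 0.07 in amygdala, and no gene passed an adjusted p of 0.05 in limma.

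The third comparison set both treatments against the home cage (Immo+FC vs. HC). In amygdala 68 of 74 genes were above 0, beside 45.4% of all genes tested, with a median log2 fold change of 0.07, beside −0.01. No gene passed, where 0.2% of all genes did in limma. At an unadjusted p under 0.05, 6 genes were higher and none lower, beside 5.34% and 7.73% of all genes, and the smallest adjusted p was 0.311. The 6 became 19 without Immo+FC library 4 (median 0.10, smallest adjusted p 0.081 in limma) and 1 without Immo+FC library 1. They also fell to 2 or 3 without Immo+FC library 3 or HC library 1, 4, 5 or 6. For these fits the share of all genes at this cut was not computed, so the counts are no result about these genes. Rpl10 was at 196, 180, 177 and 164 FPKM in Immo+FC and at 161 to 175 FPKM in HC. Rps27 was at 526.3, 433, 441 and 394 FPKM in Immo+FC and at 402 to 413 FPKM in HC. Rpl37a was at 188, 147, 143 and 136 FPKM in Immo+FC and at 132 to 142 FPKM in HC. For each of the 3 genes 1 Immo+FC library lay within or below the HC range and library 1 was the highest.

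Without Immo+FC library 1 the median in amygdala was 0.003 and the log2 fold changes of Rpl10, Rps27, Rpl37a and Rps23 were 0.06 each, where they had been 0.11, 0.14, 0.17 and 0.10. Rpl7l1 was 0.09 with that library and 0.10 without it, and was at 11.8, 12.2, 12.2 and 11.9 FPKM in Immo+FC and at 10.7 to 11.6 FPKM in HC. All 4 of its Immo+FC libraries were above all 6 HC libraries, with an unadjusted p of 0.0417 and an adjusted p of 0.358 in limma. That library also had a low level of transcripts over 10000 bases. The mean log2 level of 317 such genes was below the tissue mean in HC libraries 1 and 2, in all 6 FC libraries and in Immo+FC library 1, and above it in the other 7. Within the 7 libraries above the mean the median log2 fold change of the ribosomal protein genes for Immo+FC vs. HC was 0.002. These 7 leave out Immo+FC library 1, so that value cannot separate the long-transcript level from the removal of that library. With this long-transcript level as a covariate and all libraries kept, the median was 0.07.

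In blood 5 of 76 genes were above 0 for Immo+FC vs. HC, beside 47% of all genes tested, and the median log2 fold change was −0.19, beside −0.02. No gene passed an adjusted p of 0.05, where 0.0686% of all genes did in limma. At an unadjusted p under 0.05, 1 gene was higher and 3 were lower, beside 7.14% and 8.12% of all genes. The 3 lower genes became 15 when HC library 2 was left out and 7 when library 1 of HC was. They became 1 when HC library 3 or Immo+FC library 1 was left out, and 0 when HC library 4 was. The share of all genes at this cut was not computed for the fits that left out a library. Such counts are thus no result about these genes. Rpl22l1 was at 396, 397, 472 and 498 FPKM in HC, and 4 of 5 Immo+FC libraries were below all of these. Its log2 fold change was −0.34 ± 0.13 (SE) with an adjusted p of 0.208 in limma, the smallest of these genes in any comparison of the main fit. Rpl36a, a large-subunit protein, was at 1448, 1250, 2009 and 1659 FPKM in HC and at 1054, 1229, 1131, 1340 and 1331 FPKM in Immo+FC, with a log2 fold change of −0.37. Rpl3 followed with −0.27, Rps4y2 with 0.58 and Rpl7l1 with 0.22. The median was −0.25 without HC library 2 and −0.22 with the replicate number as a block. Without HC library 3 the median was −0.07, the value for Rpl36a −0.25 and that for Rpl22l1 −0.31. The 95% interval lay within ±0.5 for 32 of 76 genes. With array weights the median was −0.01 and after quantile normalization −0.07. Without HC library 4, the shallowest, Rps4y2 was at 0.33.

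The share of ribosomal protein transcripts in the summed FPKM of a blood library was 17.0 ± 1.65% in Immo+FC (SD, n = 5), 18.9 ± 1.15% in FC (SD, n = 5) and 19.1 ± 1.67% in HC (SD, n = 4), and the groups overlapped. Without Rpl41 it was 15.8%, 17.6% and 17.3%, so the order of FC and HC turned. HC library 3, with the highest level of these genes, had the lowest HC share, 16.8%. Marker sums of other cells also differed between groups. Neutrophil markers (10 of 11 listed, none at 0 in every library of a group) summed to 12288 to 44535 FPKM in Immo+FC, 8489 to 21012 FPKM in FC and 4507 to 29766 FPKM in HC. B cell markers (8 of 9 listed, none at 0) summed to 1451 to 2128 FPKM in Immo+FC and 2161 to 2766 FPKM in FC, which did not overlap, and to 1228 to 2458 FPKM in HC. T cell markers (10 of 10 listed) were at 601 to 989, 777 to 1007 and 576 to 818 FPKM in Immo+FC, FC and HC. Natural killer markers (5 of 5 listed) were at 211 to 447, 356 to 439 and 244 to 329 FPKM in the same order. For both lists Immo+FC overlapped FC and HC. By the paper's blood counts, neutrophils were a larger fraction and lymphocytes a smaller one in Immo+FC than in FC or HC. HC and FC did not differ in these counts. The part of these cells in the differences was not tested. In marker sums of bulk blood alone, fewer cells of a type cannot be told apart from less RNA per cell.

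Paralogs of ribosomal proteins were also compared with their main genes inside each library, since such a ratio does not depend on the scaling of the library. Of 7 pairs, Rpl22l1 was the only relative above its main gene in either tissue. It was at 3.39 to 4.66 times Rpl22 in amygdala, with a median of 3.94, and at 1.71 to 2.35 times in blood, with a median of 1.91. Rps4y2 was at a median of 0.150 of Rps4x in amygdala and 0.00280 in blood. Rpl7l1 was at 0.0800 of Rpl7 in amygdala and 0.0112 in blood, and Rps27l at 0.0455 of Rps27 in amygdala and 0.00880 in blood. For these 4 pairs no blood library reached the lowest amygdala library. Rpl3l and Rpl39l stayed below 0.01 of their main genes in every library.

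The ratios gave 30 tests over both tissues by exact permutation of libraries, two-sided, and none passed after Benjamini-Hochberg adjustment. With so few libraries no single ratio could pass unless other ratios also had very small p. The 4 smallest p for Immo+FC vs. FC were all in blood, each with an adjusted p of 0.190 by exact permutation. Rps4y2/Rps4x was at 0.00433 ± 0.00111 in Immo+FC and 0.00217 ± 0.000539 in FC (SD, n = 5 each). All 5 Immo+FC libraries were above all 5 FC libraries (log2 difference 0.98, exact permutation p = 0.00794, the smallest that 5 and 5 libraries can give). Rps27l/Rps27 was at 0.0126 ± 0.00332 and 0.00807 ± 0.000941 (log2 difference 0.61, exact permutation p = 0.0238). Rpl7l1/Rpl7 was at 0.0142 ± 0.00229 and 0.0106 ± 0.000961 (0.42, exact permutation p = 0.0317), and Rpl22l1/Rpl22 at 1.81 ± 0.0889 and 2.12 ± 0.189 (−0.22, exact permutation p = 0.0317). Against HC, which shares the Immo+FC libraries, Rps4y2/Rps4x differed by 0.79 (exact permutation p = 0.0238) and Rpl7l1/Rpl7 by 0.39 (exact permutation p = 0.0397). No ratio in amygdala had an exact p under 0.05, and the smallest there was 0.0974 for Rpl22l1/Rpl22 in FC vs. HC.

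**Figure D4:**
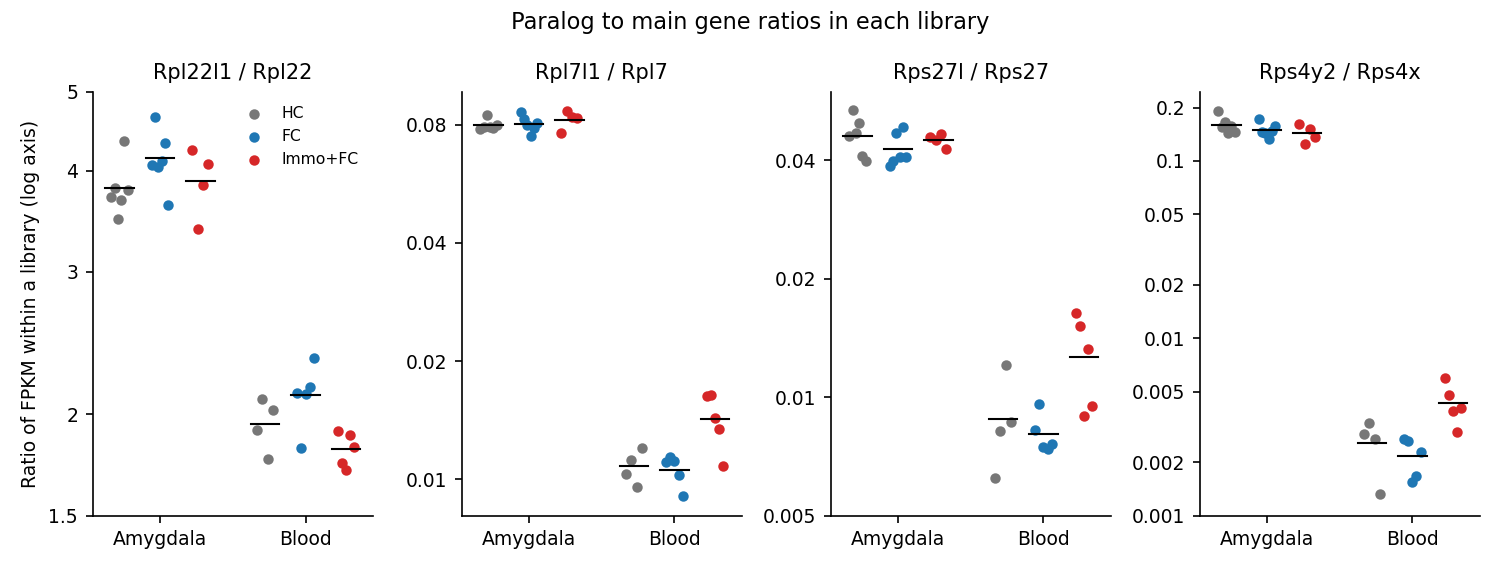
Ratio of paralog to main gene FPKM in each library (y axis, log, with its own range in each panel) for 4 pairs in amygdala and blood, with points colored by group and group means as bars. The blood ratios lie below the amygdala ratios in all 4 panels, and in blood Rps4y2/Rps4x averages 0.00433 in Immo+FC and 0.00217 in FC.

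Other genes of the translation machinery were set beside the ribosomal protein genes by list. None of 11 elongation genes, 30 genes of initiation and poly(A) binding, 38 of ribosome biogenesis, 16 of mTOR signalling to ribosomes and 73 mitochondrial ribosomal proteins passed an adjusted p of 0.05 in limma in any of the 6 comparisons, and neither did any nuclear-encoded oxidative phosphorylation or proteasome gene. For Immo+FC vs. FC in amygdala the medians of initiation, biogenesis and elongation genes were −0.04, −0.05 and −0.03, with 7 of 30, 9 of 38 and 2 of 11 genes above 0, where all genes had a median of −0.02 with 39.9% above 0. The ribosomal protein genes were at 0.04, and at −0.03 without Immo+FC library 1. The 8 ribosomal proteins outside the naming rule were all above 0, with a median of 0.05. In blood the same comparison gave −0.04, −0.10 and −0.12 for these lists and −0.14 for the ribosomal protein genes. Mitochondrial ribosomal proteins had a median of 0.02 there and proteasome genes 0.05. Among the marker lists P2ry12, a microglial receptor, was the only gene past an adjusted p of 0.05, in amygdala for Immo+FC vs. HC (log2 fold change −0.36, adjusted p = 0.0206 in limma). No gene passed in that comparison with the replicate block, with only the groups compared, or without Immo+FC library 1, 2 or 3 or HC library 2 or 5, so the call was lost there.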

How the data were processed

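Expression was measured by poly-A RNA sequencing in 16 amygdala and 14 blood libraries. Per the labels and the study's methods, STAR 2.3 was the aligner and mm10 the genome, and the authors made the deposited FPKM values with Cufflinks and Cuffdiff 2.1.1, each tissue on its own. A deposited table also gives each library's sequence count and the percent of sequences mapped. FPKM loses the depth of a gene's reads, so counting error per gene is not known. Strand was not stated.

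Values were turned into log2(FPKM + 0.1). Genes averaging 0.5 FPKM or more in a tissue entered limma (version 3.58.1, R version 4.3.3), with a variance trend and the 3 groups in 1 fit. The procedure was tested on simulated data, and p-values were adjusted by Benjamini-Hochberg over all genes. Positions and lengths came from GENCODE M21 and promoters from RefSeq, both GRCm38, the assembly of mm10. Replicates were pools of 2 mice. The replicate numbers did not mark shared animals between groups, so no block was used in the main fit. Named genes were the 5 smallest p of each comparison, the 5 highest and 5 lowest levels of each tissue, 7 paralog pairs and 7 well studied genes. Rps9, Rps15a, Rpl4 and Rpl36 were named after their values were seen. The genes and lists were chosen with earlier results of these data known.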

Additional observations from a re-analysis of the deposited data

Results flagged for a closer look

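Within the named genes and 2 summed values, 222 groups of libraries were examined by Dixon's test for a single library far from the rest. The genes vary together within a library, so the groups are not independent tests. Rpl10l, at 0 in every library, could not be flagged. The count that chance gives, about 11.1, is thus no yardstick for an excess. Past the critical value of the test were 18 groups. Immo+FC amygdala library 1 gave 6 of these, as the highest of 4: Rpl11 at 234 FPKM, Rpl36a at 173 FPKM, Rps27a at 183 FPKM, Rps29 at 804 FPKM, Rps4x at 215 FPKM and Rps6 at 67.2 FPKM. FC amygdala library 3 was the highest of 6 for Rpl23 (99.8 FPKM), Rps27a (170 FPKM) and the mean level of the genes (0.10). FC amygdala library 4 was lowest for Rpl3l (0.0394 FPKM). In HC amygdala, library 4 was lowest for Rpl39 (134 FPKM) and library 1 highest for Rps27 (413 FPKM). In blood, HC library 3 was highest for Rpl10 (2646 FPKM) and Rps6 (787 FPKM), HC library 4 for Rpl39l (2.04 FPKM), and FC library 5 for Rpl10 (2114 FPKM), Rpl36a (1557 FPKM) and Rpl7 (2203 FPKM).

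In 4 of 105 gene and comparison pairs every treated library was above the control mean in amygdala and below it in blood. These were Rpl23 (log2 fold change 0.071 in amygdala, −0.21 in blood), Rpl37a (0.17, −0.36) and Rps6 (0.054, −0.15) for Immo+FC vs. HC, and Rps14 (0.065, −0.18) for FC vs. HC. The blood side rested on HC library 3, the highest HC library for all 4 genes. Against the HC mean without it, 3 of 5 treated libraries were below for Rpl23, 4 of 5 for Rpl37a, 3 of 5 for Rps6 and 2 of 5 for Rps14. The difference between the tissues was not tested. No share over all genes was computed for this pattern. The genes vary together and the comparisons share libraries, so the 4 pairs are not set against chance.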

How the results depend on the processing

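No ribosomal protein gene passed an adjusted p of 0.05 in limma in any of the 6 comparisons under any alternative (0 to 0 genes). The alternatives were a pseudocount of 1 or 0.01 FPKM, no filter or a minimum of 2 FPKM, median-ratio scaling and quantile normalization. Others were only the groups compared, array weights, the long-transcript level of each library as a covariate, and each library left out. The smallest adjusted p in these fits was 0.054 in limma, in blood Immo+FC vs. HC with array weights, close to the threshold. No gene passed either under scaling to the genes' own mean or within amygdala libraries of like long-transcript level. Both of these were chosen after seeing the data. The replicate block also gave 0 genes in each comparison. Same-numbered libraries of different groups had residual correlations of −0.26 to 0.31 in amygdala (3 of 14 pairs over 0.1) and −0.25 to 0.21 in blood (2 of 13), so the block pairs nothing known to be shared. Of the named genes, Rps3 reversed to −0.018 in amygdala FC vs. HC with the long-transcript covariate, where the median of the genes was −0.04. Rpl23a reversed to 0.014 in blood FC vs. HC with array weights. The cause was not tested. Calls among all genes were less stable: in amygdala 2, 3 and 27 for FC vs. HC, Immo+FC vs. FC and Immo+FC vs. HC became 500, 171 and 16 with array weights, 160, 62 and 0 with the block, and 2, 67 and 0 with only the groups compared, and in blood 4 for FC vs. HC became 195 without a filter and 8 for Immo+FC vs. HC became 361 with array weights, 102 with a pseudocount of 1 FPKM and 85 after quantile normalization. Leaving out single libraries gave up to 148 in amygdala and 296 in blood. Scaling to the genes' own mean moved the median of all genes in blood Immo+FC vs. HC from −0.02 to 0.14. Paralog ratios also gave 0 adjusted calls under each alternative, but the number of libraries nearly fixes this, and it says nothing of stability. Blood libraries were fewer and more spread, so small differences there were not detectable.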
